A study of Mus musculus with 2 samples.

Results

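The genes Hsd11b1, Hsd11b2, H6pd, Srd5a1, Srd5a2 and Srd5a3, which encode enzymes that switch glucocorticoids on or off or reduce steroids at the 5-alpha position, were picked by symbol. All 6 were found among the 55536 annotated genes of the deposited tables. The RNA came from whole adrenal glands of 2 female mice of the F1 hybrid strain B6CASTF1/J, a cross of C57BL/6J with CAST/EiJ, aged 18 to 20 months and without a stated treatment. Each animal gave 1 library of ribosome-reduced, stranded total RNA with ERCC spike-ins (synthetic RNAs added in known amounts), and both libraries belong to 1 group, so no condition could be compared. They carry the replicate numbers 1 and 2 and separate tissue identifiers, but the labels give both the same donor identifier, and 1 label field of animal 2 repeats the animal name of animal 1.

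11-beta-hydroxysteroid dehydrogenase type 1, the product of Hsd11b1, sits in the endoplasmic reticulum and turns inert 11-dehydrocorticosterone into corticosterone, the main glucocorticoid of mice. It needs NADPH, which hexose-6-phosphate dehydrogenase (H6pd) makes in the same compartment, while the type 2 enzyme (Hsd11b2) runs the opposite reaction and is best known from the kidney, where it keeps corticosterone away from the mineralocorticoid receptor. Steroid 5-alpha-reductases 1 and 2 (Srd5a1, Srd5a2) reduce testosterone, progesterone and corticosterone, and the product of Srd5a3 is known above all as the polyprenol reductase that makes dolichol for protein glycosylation.

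Sequences are shown first, because they tell how far reads of 1 member could be shared with another. The stretches below code for the active site of the 11-beta-hydroxysteroid dehydrogenases, with the codons of the catalytic serine, tyrosine and lysine in capitals, and were taken from the GENCODE M21 transcripts of the mm10 build, the annotation of the tables. These residues stand at positions 170, 183 and 187 of the type 1 enzyme and 219, 232 and 236 of the type 2 enzyme.
Hsd11b1: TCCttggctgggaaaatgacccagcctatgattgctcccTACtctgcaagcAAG
Hsd11b2: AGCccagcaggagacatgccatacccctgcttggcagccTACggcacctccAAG
Of these 54 bases, 26 were identical, and over the 844 coding bases aligned without a gap 60.1% were. The longest run of identical bases between the 2 transcripts was 11.

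For Srd5a1 and Srd5a2 the best matching stretch of 60 coding bases lay at the very end of both coding sequences, codons 236 to 255 of 255 in Srd5a1 and 235 to 254 of 254 in Srd5a2. Capitals mark the 46 bases that are the same in both.
Srd5a1: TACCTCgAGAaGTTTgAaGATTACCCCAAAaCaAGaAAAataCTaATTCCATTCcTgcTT
Srd5a2: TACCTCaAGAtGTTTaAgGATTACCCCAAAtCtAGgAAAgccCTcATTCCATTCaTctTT
The coding sequences of this pair were 60.1% identical over the 736 bases aligned without a gap, with a longest shared run of 14 bases. Over 721 and 738 such bases, of its 990 coding bases, Srd5a3 shared 64.5% with Srd5a1 and 62.1% with Srd5a2. Its longest runs with their transcripts were 13 and 11 bases. Gapped bases are left out, so these percentages do not rank how closely the genes are related.

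The libraries held 35452819 expected counts (estimated reads or fragments per gene) on annotated genes in animal 1 and 34879073 in animal 2. Levels are given in TPM (transcript abundance corrected for length and set to a fixed total per library), and a gene was called detected at 1 TPM or more in both libraries. Fixed markers of the cortex were all present, 6 of 6, with summed levels of 6552 TPM in animal 1 and 9718 in animal 2, and so were 6 of 6 markers of the medulla at 1807 and 1526 TPM. Star (2984 and 5374 TPM) and Cyp11a1 (2335 and 2034 TPM) were the largest parts of the cortex sum. Of the 6 cortex markers 4 had the higher scaled level in animal 2, among them Fdx1 (378 and 1004 TPM). Cyp11a1 and Mc2r (116 and 106 TPM) had it in animal 1. The spread between the animals over 17024 genes, as an edgeR coefficient of variation beyond counting error, was 0.242.

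Of the members 5 of 6 were detected, all but Hsd11b2. In mean TPM, Srd5a2 stood at 44.4 ± 36.6, H6pd at 39.1 ± 3.14, Hsd11b1 at 33.1 ± 0.191, Srd5a3 at 6.93 ± 0.332, Srd5a1 at 3.73 ± 0.120 and Hsd11b2 at 0.230 ± 0.0990 (SD, n = 2 for each). Srd5a2 has no fixed place at the top of this order, since its 2 values lie on either side of those of H6pd and Hsd11b1. H6pd exceeded Hsd11b1 in every pairing of the gene table, but their order turned in a second deposited transcript table, quantified from the read files and not from the alignment behind the gene table, per the deposited description, where Hsd11b1 had 72.9 ± 7.69 and H6pd 70.7 ± 7.36 TPM (SD, n = 2). The steps below, to Srd5a3, to Srd5a1 and to Hsd11b2, were free of overlap in both tables. With 1 group of 2 animals no test was run, and each SD measures only the spread between these libraries.

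**Figure D1:**
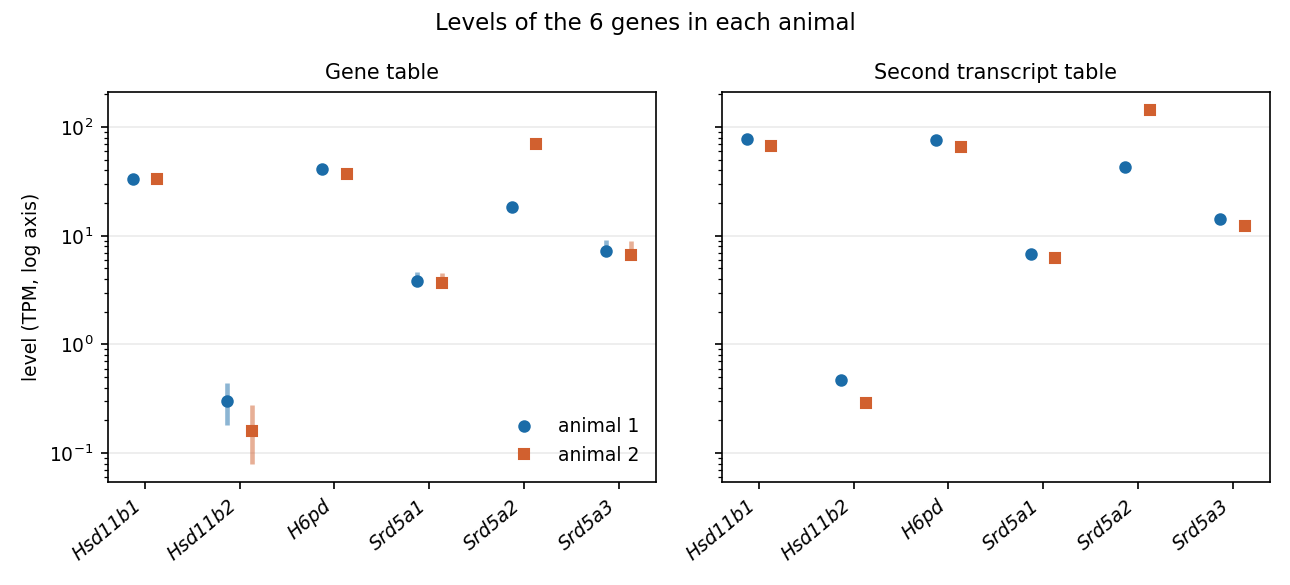
Level of each gene in TPM (log axis) in animal 1 (blue circles) and animal 2 (orange squares), in the gene table (left, with the deposited intervals as bars) and in the second transcript table (right). Srd5a2 is the gene whose animals stand far apart, at 18.5 and 70.3 TPM in the gene table, and Hsd11b2 lies under 1 TPM throughout.

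Hsd11b1 (ENSMUSG00000016194.14, mm10 chromosome 1, 193221634 to 193264075, minus strand) had 33.2 TPM in animal 1, against 33.0 TPM in animal 2, from 1696 and 1519 expected counts. The deposited intervals, 31.5 to 34.8 and 31.1 to 34.4 TPM, overlapped almost entirely, and the gene ranked 1794 among 11552 detected protein-coding genes. After TMM scaling of the counts the log2 ratio of animal 1 over animal 2 was 0.08. The enzyme is known from liver and fat, and some of the markers listed for each tissue were detected. Of 7 adipocyte markers 6 were detected, with summed levels of 3158 TPM in animal 1 and 1993 in animal 2, and the lowest, Lep, had 0.71 and 0.25 TPM. Of 7 liver markers 3 were detected, and Apoa1, Ttr, Cps1 and Serpina1a were not. The liver markers reached 99.8 and 103 TPM in sum, most of it from Cyp2e1 (81.8 and 95.6 TPM), while albumin (Alb) had 11.2 and 3.45 TPM. The adipocyte sum was higher in animal 1, with Ucp1 called higher there. Albumin was also called higher in animal 1, but Cyp2e1 was not called and the liver sum was slightly higher in animal 2. The part of fat or liver RNA in the level of Hsd11b1 was not tested.

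H6pd (ENSMUSG00000028980.14, chromosome 4, 149979475 to 150009023, minus strand) had 41.3 TPM in animal 1, against 36.9 TPM in animal 2, from 6470 and 5385 counts. Its intervals, 38.5 to 43.2 and 34.5 to 38.8 TPM, overlapped slightly, and the log2 ratio was 0.18. Within a library, Hsd11b1 over H6pd was -0.31 in animal 1 and -0.16 in animal 2 on the log2 scale of TPM. The enzyme and its source of NADPH thus stood at nearly the same transcript level in both animals, with the sign of the small difference depending on the table (0.04 on average in the second one). G6pdx, the cytosolic glucose-6-phosphate dehydrogenase, was higher than H6pd by a factor of 1.56 in animal 1 and 1.60 in animal 2. This factor rests on the length correction, since uncorrected counts gave a log2 ratio of H6pd over G6pdx of 0.05.

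Hsd11b2 (ENSMUSG00000031891.6, chromosome 8, 105518755 to 105523988, plus strand) was close to the limit of detection, with 0.300 TPM in animal 1, against 0.160 TPM in animal 2. These levels came from 20 and 10 counts, whose exact Poisson intervals (95%, counting error only) ran from 12.2 to 30.9 and from 4.80 to 18.4. The ratio of animal 1 over animal 2, 1.89, had a counting interval from 0.844 to 4.52, so no difference was detectable at this depth. Hsd11b1 exceeded Hsd11b2 by 111-fold in animal 1 and 206-fold in animal 2, on average by 7.24 ± 0.63 on the log2 scale (SD, n = 2). The mineralocorticoid receptor Nr3c2, which the type 2 enzyme guards in the kidney, had 3.69 and 2.81 TPM and exceeded Hsd11b2 by 12.3-fold and 17.6-fold. Markers of kidney tubules and collecting ducts summed to 0.860 TPM in each animal, with 0 of 9 detected, Slc12a1 and Avpr2 at 0 counts in both libraries and Aqp2 at 0.25 and 0.43 TPM. Whether the few Hsd11b2 reads come from kidney, cortex or medulla was not tested.

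Srd5a2 was the member in which the animals differed. The gene (ENSMUSG00000038541.8, chromosome 17, 74016955 to 74047916, minus strand) had 18.5 TPM in animal 1, against 70.3 TPM in animal 2, from 1083 and 3759 expected counts. The deposited intervals, 17.1 to 19.3 and 66.7 to 71.2 TPM, lay far apart. After TMM scaling the log2 ratio of animal 1 over animal 2 was -1.88, a 3.67-fold difference, and it lay between -2.10 and -1.75 under 3 other scalings, the second transcript table and a prior count of 5. It remained -1.78 when the counts of CT025731.1, an overlapping gene of the same strand, were added. In whole tissue, a smaller share of the cells that express the gene and less RNA per cell cannot be told apart.

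A call required a scaled ratio of 2 or more in either direction, a mean expected count of 50 or more and separate deposited intervals. Of the 13570 genes with enough counts, 3.46% met this rule. Among the members 5 of 6 had enough counts, 1 of these 5 was called, and it was higher in animal 2 as were 1.71% of all genes tested. The count called higher in animal 1 was 0 of these 5, against 1.75% of all genes tested. Srd5a2 ranked 33 by ratio among the 232 genes called higher in animal 2. It was also the single member of these 5 whose intervals did not overlap, which 33.1% of the genes tested shared. The other 4 had log2 ratios from 0.08 to 0.18, against a median of 0.01 over all genes tested. Under scaling by spike-in totals that median moved to -0.21 and these 4 ratios turned negative with it, from -0.15 to -0.04, so their sign is not fixed.

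**Figure D2:**
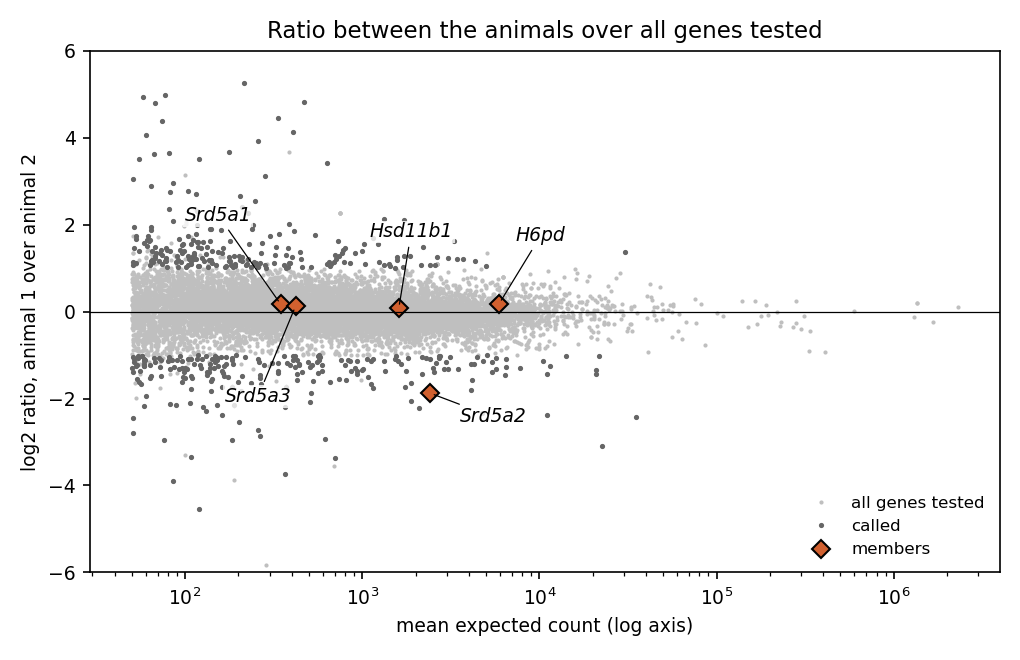
Log2 ratio of animal 1 over animal 2 after TMM scaling against the mean expected count (log axis) for the 13570 genes tested, in grey, with called genes in dark grey and 5 members as diamonds. Srd5a2 lies at -1.88 below the main cloud and the other 4 members lie near 0, and 31 genes lie outside the plotted range of 6 log2 units either way.

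The X-zone is the innermost layer of the mouse cortex and is best known in females. The summed level of its markers was 138 TPM in animal 1, against 1075 TPM in animal 2, with 3 of 3 detected and none at 0, and 2 of the 3 were called higher in animal 2, as were 1.71% of all genes tested. Akr1c18 had 116 and 1034 TPM, Pik3c2g had 1.52 and 13.2 TPM, and Thrb, which was not called, had 19.8 and 27.8 TPM. Cortex markers also summed higher in animal 2, with 4 of 6 higher there and Cyp11a1 and Mc2r higher in animal 1. Only Fdx1 of these 6 was called, and it was higher in animal 2. Adipocyte markers and striated muscle markers (140 TPM in animal 1, against 0.340 TPM in animal 2) were lower in animal 2. The part of any of these in the Srd5a2 difference was not tested.

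Srd5a1 (ENSMUSG00000021594.11, chromosome 13, 69573449 to 69611442, minus strand), the reductase that most tissues express, was low in both animals with 3.81 TPM in animal 1, against 3.64 TPM in animal 2. These levels rested on 377 and 317 counts and had intervals of 3.53 to 4.62 and 3.33 to 4.59 TPM. Srd5a2 exceeded it by 4.86-fold in animal 1 and 19.3-fold in animal 2. The order of these isoenzymes was the same in both glands, and the 2 gaps differed by more than any difference in Srd5a1. Srd5a3 (ENSMUSG00000029233.15, chromosome 5, 76140271 to 76155504, plus strand) had 7.17 TPM in animal 1, against 6.70 TPM in animal 2, from 450 and 390 counts. It exceeded Srd5a1 by 0.90 ± 0.02 on the log2 scale (SD, n = 2), or 1.88-fold in animal 1 and 1.84-fold in animal 2.

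The promoter windows of the 2 steroid 5-alpha-reductases are given because Srd5a2 alone among the members was called and Srd5a1 encodes the other one. They run from 250 bases before to 50 bases after the RefSeq start on GRCm38.p6, the assembly also called mm10, for Srd5a1 chr13:69611414-69611713 and for Srd5a2 chr17:74047811-74048110, both on the minus strand and printed in the direction of transcription. The third window belongs to H6pd (chr4:150003187-150003486, minus strand), whose annotated starts, like those of Hsd11b1, are treated further on. No GENCODE M21 transcript of H6pd starts inside it, and the nearest, H6pd-202, starts just downstream at 150003130. Capitals mark matches on either strand to the GC box (GGGCGG), the CCAAT box (CCAAT), the TATA box (TATAAA) and a binding site of the cortical factor NR5A1 (AAGGTCA).
Srd5a1: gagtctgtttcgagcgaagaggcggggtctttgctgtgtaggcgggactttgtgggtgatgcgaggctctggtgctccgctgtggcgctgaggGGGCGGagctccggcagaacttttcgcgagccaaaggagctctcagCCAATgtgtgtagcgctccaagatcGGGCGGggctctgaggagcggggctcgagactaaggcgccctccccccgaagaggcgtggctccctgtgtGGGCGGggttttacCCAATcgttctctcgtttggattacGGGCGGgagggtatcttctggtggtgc
Srd5a2: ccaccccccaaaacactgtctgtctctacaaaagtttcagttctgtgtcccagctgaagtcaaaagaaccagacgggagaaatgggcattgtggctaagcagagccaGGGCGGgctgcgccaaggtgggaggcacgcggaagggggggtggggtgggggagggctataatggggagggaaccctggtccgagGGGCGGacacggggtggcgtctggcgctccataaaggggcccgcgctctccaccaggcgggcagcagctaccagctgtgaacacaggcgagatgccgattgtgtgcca
H6pd: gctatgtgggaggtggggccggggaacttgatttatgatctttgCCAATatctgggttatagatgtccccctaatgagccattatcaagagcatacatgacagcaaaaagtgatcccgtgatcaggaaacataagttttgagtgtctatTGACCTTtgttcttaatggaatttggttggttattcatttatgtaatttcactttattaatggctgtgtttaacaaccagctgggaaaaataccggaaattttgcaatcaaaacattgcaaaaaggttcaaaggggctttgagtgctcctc
The window of Srd5a1 held 4 GC boxes, 2 CCAAT boxes and 24 CpG dinucleotides, that of Srd5a2 held 2 GC boxes, no CCAAT box and 15 CpG, and that of H6pd held 1 CCAAT box, 1 NR5A1 site and 3 CpG. No window of the 3 held TATAAA. Of the windows not printed, that of Srd5a3 held 3 GC boxes and 26 CpG, that of Hsd11b1 held 1 CCAAT box and 6 CpG, and both held 0 NR5A1 sites. Among all 32851 windows of the RefSeq table, 35.7% held a GC box, 37.4% a CCAAT box, 13.6% a TATA box and 4.72% the NR5A1 letters, and the median number of CpG was 7. The table matched 5 of the 6 genes, and of these 5 windows that of H6pd alone held the NR5A1 letters.

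A stretch of 144 exonic bases is shared by Srd5a2 and CT025731.1 (chromosome 17, 74026998 to 74079046), a non-coding gene of the same strand, so reads in it were split by estimation. CT025731.1 was given 5.47 TPM in animal 1, against 8.43 TPM in animal 2, from 138 and 194 counts. The second transcript table gave this gene 26.1 and 30.2 TPM and Srd5a2 itself 43.2 and 145 TPM. Srd5a1 likewise shares 476 exonic bases with Gm17108, an overlapping gene of the same strand with 0 and 0.0800 TPM. The second transcript table gave Gm17108 0.70 and 0.63 TPM and Srd5a1 6.83 and 6.23 TPM. On the opposite strand, Lamb3 spans all of Hsd11b1 and had 0.940 and 0.450 TPM, and Nsun2, which spans Srd5a1, had 20.6 and 25.9 TPM. Per the labels the library kit keeps the strand, and the part of neighbouring genes in the counts of the members was not tested beyond the sum given above.

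For Hsd11b1 and H6pd the tables also bear on where transcription starts, because the leading annotated messages begin at different first exons. Hsd11b1-205 begins at the distal start of the gene with a non-coding exon of 128 bases (chromosome 1, 193263948 to 193264075). Hsd11b1-201 begins 21.4 kb further downstream with an exon of 455 bases (193242175 to 193242629) that holds the start codon. Both carry the same 876 coding bases, so they make the same enzyme. H6pd-201 begins at the distal start of that gene (first exon 150008751 to 150009023), and H6pd-202 begins 5.89 kb downstream (150003032 to 150003130). Their coding parts differ by 24 bases that H6pd-201 has in addition.

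In the transcript table made together with the gene table, Hsd11b1-205 took 76.4% of the TPM of its gene in animal 1 and 84.96% in animal 2, at 25.4 and 28.0 TPM. Hsd11b1-201 took 22.8% and 14.6%, and the remaining coding forms were estimated at 0. The deposited interval of Hsd11b1-203, the widest of these, still reached 3.45 TPM in animal 1 and 1.26 TPM in animal 2. The second transcript table placed the weight elsewhere. There Hsd11b1-205 had 7.22% in animal 1 and 20.0% in animal 2, behind Hsd11b1-201 with 37.6% and 35.9%, Hsd11b1-202 with 32.4% and 28.1%, and, in animal 1, Hsd11b1-203 with 22.3% (15.8% in animal 2). These tables therefore differ on the leading start, although the share of Hsd11b1-205 was lower in animal 1 than in animal 2 in both. The intervals of Hsd11b1-205, 20.8 to 26.4 TPM in animal 1 and 24.7 to 29.0 TPM in animal 2, overlapped.

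H6pd showed the same disagreement. H6pd-202 took 57.8% of the gene in animal 1 and 69.6% in animal 2, and H6pd-201 took 29.8% and 20.7%. In the second table H6pd-201 led with 63.4% and 52.4%, ahead of H6pd-202 with 19.8% and 29.1%. Again the direction between the animals was the same in both tables, with the distal form H6pd-201 higher in animal 1, at 12.3 TPM against 7.65 TPM in animal 2. Its deposited intervals of 9.82 to 14.2 and 5.66 to 9.70 TPM did not overlap, as in 25.1% of the 26010 transcripts with a mean count of at least 50. Over all 4 shares the move between tables was larger than the spread between the animals.

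**Figure D3:**
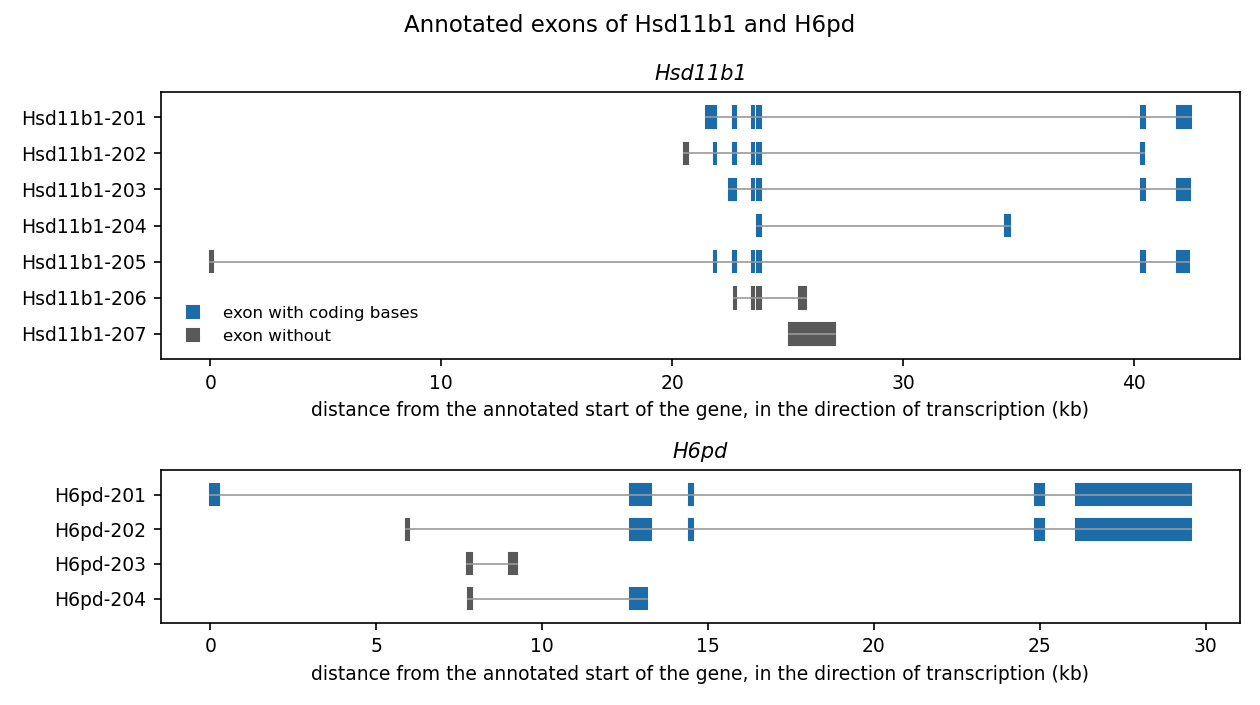
Annotated exons of the transcripts of Hsd11b1 and H6pd by distance in kb from the start of the gene, in the direction of transcription, with exons that hold coding bases in blue and the others in grey. Hsd11b1-205 and H6pd-201 begin at the distal start, and Hsd11b1-201 and H6pd-202 begin 21.4 and 5.89 kb downstream.

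**Figure D4:**
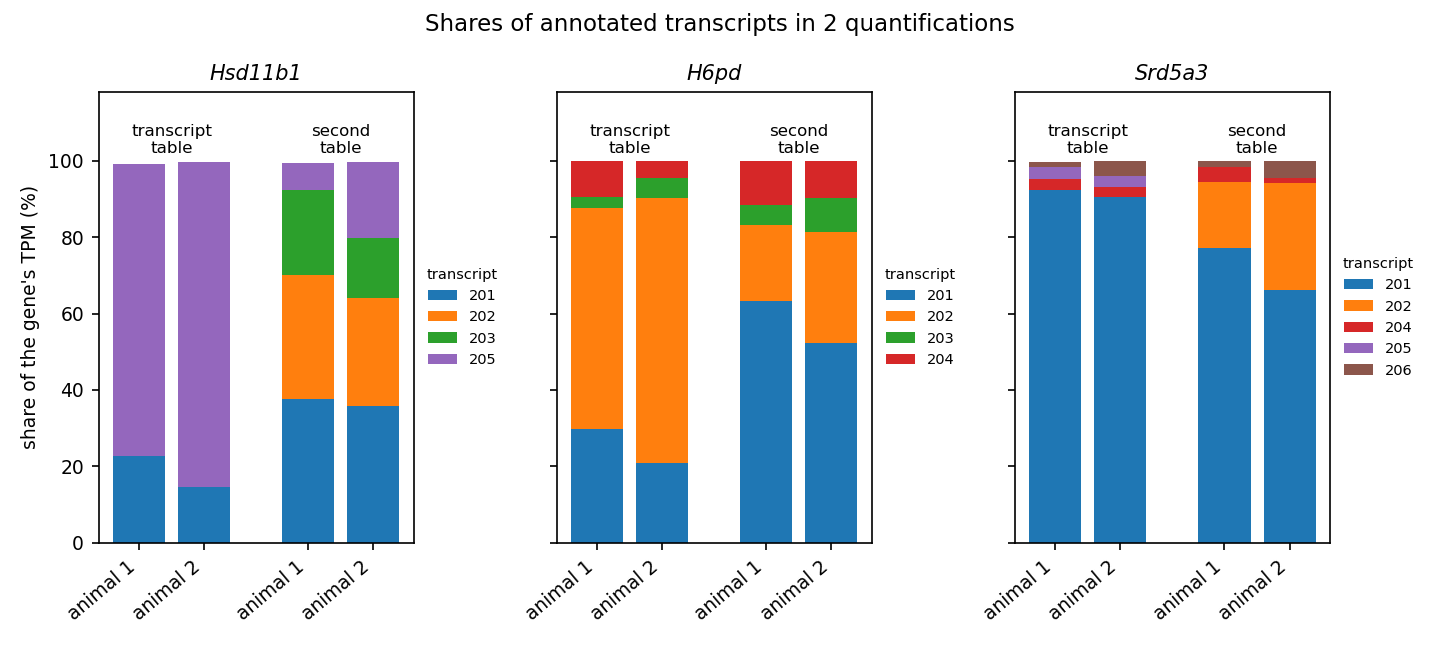
Share of each annotated transcript in the TPM of its gene (%), for Hsd11b1, H6pd and Srd5a3, with animal 1 left of animal 2 in the transcript table and in the second table. Transcripts under 1% in all 4 bars are left out, and the leading form of Hsd11b1 and H6pd changes between the tables while Srd5a3-201 leads in both.

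The remaining members had one leading form. Srd5a3-201, with 6 exons and 990 coding bases, took 92.5% of its gene in animal 1 and 90.6% in animal 2, and 77.2% and 66.2% in the second table, where the shorter Srd5a3-202 had 17.2% and 28.0%. Srd5a1-202 took 100% and 94.5%, and 90.5% and 87.6% in the second table. Hsd11b2 and Srd5a2 have a single annotated transcript each. Messages with a retained intron, Srd5a3-204 and Srd5a3-206, stayed between 1.26% and 4.43% of Srd5a3 in both tables, and the retained-intron form Hsd11b1-207 stayed at or under 0.394% of its gene.

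Around the members, 9 lists of pathway genes held 69 symbols found in the tables, 48 of them with enough counts. Of these, 4 were called, 1 with the higher level in animal 1 and 3 with the higher level in animal 2. That is 8.33% against 3.46% of all genes tested, and the median log2 ratio was 0.04 against 0.01. Most listed genes with enough counts, like most members, were not called, although the share called lay above that of all genes tested. The lists were chosen with earlier results of these data known, so no conclusion is drawn from this share.

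**Figure D5:**
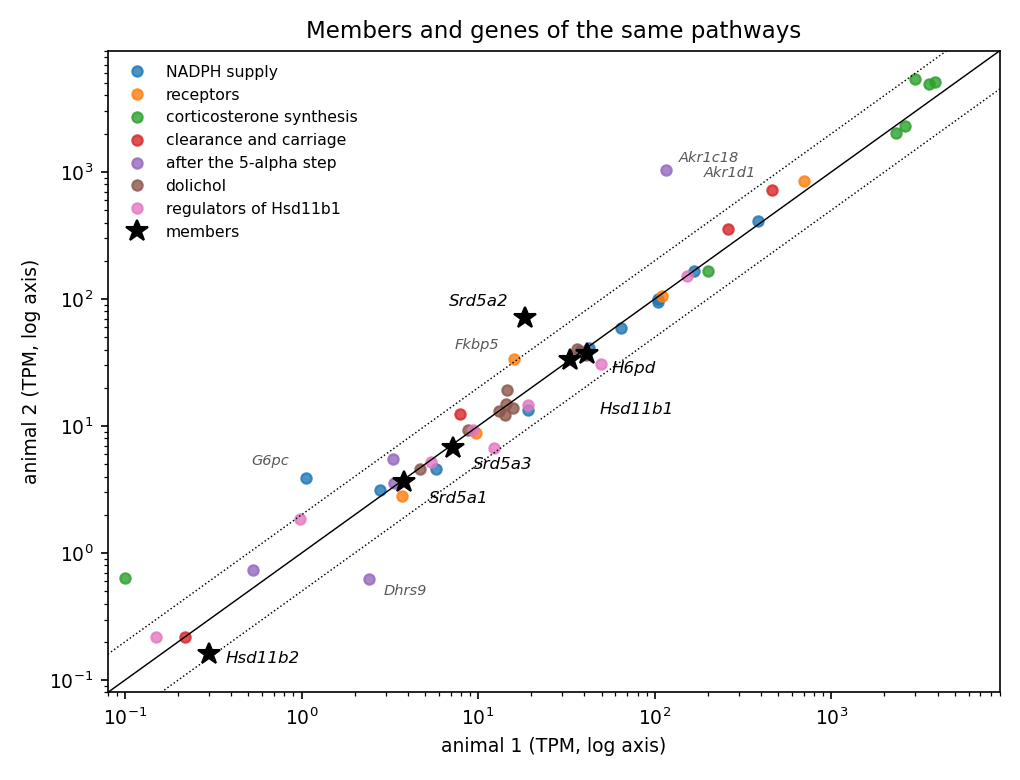
TPM in animal 1 against TPM in animal 2 (both axes log) for the members (stars) and for the reported genes of 7 pathway lists at 0.1 TPM or more in both animals, with the line of equality and dotted lines at a 2-fold ratio. Srd5a2, Akr1c18, G6pc, Fkbp5 and, at low counts, Cyp17a1 lie above the upper dotted line and Dhrs9 lies below the lower one, and the androgen list and the relatives of the reductases are not drawn.

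H6pd makes NADPH from glucose 6-phosphate inside the endoplasmic reticulum, and other enzymes make it in the cytosol. Of 12 genes for NADPH supply 11 were detected and 1 of 11 tested was called. The cytosolic suppliers were high, Me1 (malic enzyme) with 386 TPM in animal 1, against 411 TPM in animal 2, Idh1 (isocitrate dehydrogenase) with 167 and 167, Pgd (6-phosphogluconate dehydrogenase) with 104 and 99.5 and G6pdx with 64.6 and 58.9 TPM. Por, which uses NADPH to feed electrons to microsomal P450 enzymes, had 105 and 94.9 TPM. These 5 genes stood above H6pd in both animals. G6pc, a glucose-6-phosphatase of the endoplasmic reticulum, was called higher in animal 2, with 1.06 and 3.91 TPM and a 3.56-fold scaled difference. G6pc3, a second glucose-6-phosphatase of the same list, stood much higher at 37.8 and 38.7 TPM and was not called. The retrogene G6pd2 had 0 and 0.03 TPM. Slc37a4, the carrier of glucose 6-phosphate into the reticulum, named after its values were seen, had 5.80 and 4.58 TPM.

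Of 7 receptors and receptor chaperones 6 were detected and 1 of 6 tested was called. The glucocorticoid receptor Nr3c1 had 9.79 TPM in animal 1, against 8.86 TPM in animal 2, and Hsd11b1 exceeded it by 3.40-fold and 3.72-fold. The co-chaperone Fkbp5, itself a well-known target of glucocorticoids, was called higher in animal 2, with 16.0 and 33.6 TPM and a 2.11-fold scaled difference. Hsp90ab1 had 699 and 845 TPM and Fkbp4 had 110 and 106 TPM.

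Of 7 genes of corticosterone synthesis 6 were detected and 0 of 6 tested were called. The leading 5 lay far above the members, with the last enzyme Cyp11b1 at 2622 TPM in animal 1, against 2285 TPM in animal 2. Star, which brings cholesterol into mitochondria, had 2984 and 5374 TPM, Hsd3b1 had 3864 and 5118 TPM, Cyp21a1 had 3568 and 4886 TPM and Cyp11a1 had 2335 and 2034 TPM. Cyp17a1, which opens the androgen branch and belongs to the same list, had 0.10 and 0.64 TPM from 4 and 39 counts.

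Among 9 genes for other routes of glucocorticoid clearance and carriage, 3 were detected and 0 of 3 were called. Akr1d1, the steroid 5-beta-reductase, which is known above all from the liver, had 464 TPM in animal 1, against 721 TPM in animal 2, from 46631 and 66062 counts. It exceeded the sum of Srd5a1 and Srd5a2 by 20.8-fold in animal 1 and 9.75-fold in animal 2, and by 22.1-fold and 11.1-fold in the second table, a comparison chosen after the values were seen. The drug and steroid exporters Abcb1b (262 and 358 TPM) and Abcb1a (7.86 and 12.4 TPM) followed. Corticosteroid-binding globulin (Serpina6) had 0.220 TPM in both animals and Cyp3a25 had 0.110 and 0.0600 TPM, and Cyp3a11, Cyp3a13, Ugt2b1 and Sult2a8 were under 0.1 TPM in both.

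The genes listed for 3-keto and 20-keto steroids after the 5-alpha step were low apart from Akr1c18. Of 9 listed genes 3 were detected, and of 4 tested 1 was called in each direction. Akr1c18, a 20-alpha-hydroxysteroid dehydrogenase, was 8.58-fold higher in animal 2, and Dhrs9, a short-chain dehydrogenase, was 3.95-fold higher in animal 1, with 2.41 and 0.630 TPM. Akr1c13 had 3.30 and 5.51 TPM and Rdh5 had 3.33 and 3.56 TPM. Akr1c14, the 3-alpha-hydroxysteroid dehydrogenase of mice, had 0.530 and 0.730 TPM from 50 and 38 counts. Akr1c6 and Hsd17b6 were listed at 0 in both animals, and Akr1c12 had 0.0700 and 0.0600 TPM.

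Srd5a3 serves the dolichol pathway. All 9 of its genes found in the tables, of 10 listed, were detected and 0 of these 9 were called, against 3.46% of all genes tested. Dpm3 had 41.0 TPM in animal 1, against 36.1 TPM in animal 2, Dpm1 had 36.1 and 40.5, Nus1 had 14.5 and 19.4, Dhdds had 15.8 and 13.9 and Dpm2 had 14.4 and 15.0 TPM. Srd5a3 lay below these 5 genes. Tecr, an enoyl-CoA reductase related to the 5-alpha-reductases, had 149 and 158 TPM, and its paralog Tecrl had 0.0500 and 0 TPM.

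Of 9 factors known to act on Hsd11b1 in other tissues, 6 were detected and 0 of 7 tested were called. The C/EBP factors Cebpb and Cebpa, which bind its promoter in liver cells, had 151 and 152 TPM and 49.95 and 30.8 TPM in animals 1 and 2. Pparg had 19.1 and 14.6 TPM, the liver X receptor Nr1h3 12.2 and 6.70 TPM and Ppara 9.37 and 9.32 TPM. None of these 5 was called, and their part in the level of Hsd11b1 was not tested.

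The last list held enzymes that form androgens, which Srd5a2 reduces in other tissues, or that act on sex steroids otherwise. Of 6 listed genes 5 were found in the tables and 1 was detected, Hsd3b6 with 20.4 TPM in animal 1, against 23.7 TPM in animal 2, which was not called. Hsd17b3, the testosterone-forming enzyme of the testis, had 1.39 and 0.660 TPM from 32 and 14 counts, Hsd17b1 had 0.480 and 0.590 TPM, the estrogen sulfotransferase Sult1e1 had 0.230 and 0.200 TPM and aromatase (Cyp19a1), which turns androgens into estrogens, had 0 and 0.0100 TPM.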

How the data were processed

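Total RNA of 2 adrenal glands, 300 ng per library, was sequenced with 1 library per animal. Per the file headers, the authors deposited expected counts and TPM (with the bounds of an interval whose level is not stated) per gene and per transcript, with the share of each transcript in percent. A second deposited transcript table holds estimated counts and TPM. Per the deposited description, both use mm10 and GENCODE M21. The sources used here name no quantification program. Reads of CAST alleles were counted against the C57BL/6J assembly, and the effect was not tested.

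Symbols, exons and coding parts came from GENCODE M21. Spike-ins (96) and 26248 entries named by a number were left out. Expected counts were rounded and scaled with TMM (edgeR 4.0.16, R 4.3.3), 0.5 was added, and the ratio is animal 1 over animal 2. DESeq2 1.42.0 gave alternative size factors. The scaling step was tested on simulated data. Intervals of counts cover counting error only. With 1 group of 2 animals no test was made, and the SD may be technical. Levels of members are TPM.

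Members and lists were chosen with earlier results of these data known. The rule for named genes took all members, their transcripts with at least 10% of the gene in either animal and, of each pathway list, up to 5 genes by mean TPM, those called and, in lists of 12 or fewer, those under 0.1 TPM. The library and animal cannot be told apart. Some genes that this rule takes are counted in their lists but not reported here.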

Additional observations from a re-analysis of the deposited data

How the results depend on the processing

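The call of Srd5a2 held under all 5 other scalings, quantifications or prior counts. The interval part of the rule came from the gene table in each of them, so the other members could not have been called. The log2 ratios of Hsd11b1, H6pd, Srd5a1 and Srd5a3 stayed between -0.15 and 0.24 in these settings. The second transcript table raised mean TPM of detected protein-coding genes by a median factor of 1.84, and gave 72.9 for Hsd11b1, 0.378 for Hsd11b2, 70.7 for H6pd, 6.53 for Srd5a1, 93.9 for Srd5a2 and 13.3 for Srd5a3, with 3 of 5 neighbouring pairs in the order free of overlap instead of 4. Rescaled over nuclear protein-coding genes, which makes the denominator smaller, these means were 110, 0.768, 130, 12.3, 145 and 23.0. With protein-coding transcripts alone Hsd11b1 had 32.9 and Srd5a3 6.57 TPM. Without either animal the means ran from 33.0 to 33.2, 0.160 to 0.300, 36.9 to 41.3, 3.64 to 3.81, 18.5 to 70.3 and 6.70 to 7.17 TPM. The log2 ratio of Hsd11b1 over H6pd reversed to 0.0439 in the second table and was -1.88 on counts not corrected for length. On such counts Hsd11b1 over Nr3c1 reversed to -0.0101, H6pd over G6pdx reversed to 0.0471, Srd5a3 over Srd5a1 was 0.28 and Hsd11b2 over Nr3c2 was -5.25, since longer messages give more counts. Srd5a3 over Srd5a1 was 1.03 in the second table and 0.86 with coding transcripts alone, and H6pd over G6pdx was -0.78 and -0.69. Shares in the second table were 36.8% for Hsd11b1-201, 13.6% for Hsd11b1-205, 57.9% for H6pd-201, 24.4% for H6pd-202, 89.1% for Srd5a1-202 and 71.7% for Srd5a3-201, and the cause was not tested. The number of genes called was 469, or 732 at a mean count of at least 10 and 785 with no minimum, since more genes are then tested. With spike-in scaling 153 of 546 were higher in animal 1, against 237 of 469 with TMM. No paired analysis was possible because there is 1 group. Depth limits Hsd11b2, with 20 and 10 counts.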
